A study of Mus musculus with 8 samples.

Results

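Malat1, Gm37376 and Neat1 are 3 of the 19642 rows of the liver count table, taken by gene symbol from a single stretch of mouse chromosome 19. All 3 passed the filter on low counts, as did 14214 rows in all. Malat1 and Neat1 were included as the abundant nuclear noncoding RNAs of this locus. Gm37376 was chosen on its lower count in these N-LKO livers, so its difference between genotypes is described without a test.

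RNA from the livers of 8 male mice on a C57BL6 background was sequenced after rRNA removal, with 1 library per mouse. WT mice (n = 4) kept NgBR. N-LKO mice (n = 4) had a loxP-flanked NgBR allele deleted by albumin-Cre, which acts in hepatocytes. The paper names endothelial, stellate and Kupffer cells as examples of liver cells that express NgBR. Both groups received a chow diet (CD), for 8 weeks by the sample titles and 16 weeks by the treatment entries. WT livers held Nus1, the gene for NgBR, at 88.0 ± 4.14 CPM (counts scaled to library size) and N-LKO livers at 36.7 ± 2.56 CPM (SD, n = 4 each), a log2 fold change of -1.26 (SE 0.0748, edgeR quasi-likelihood adjusted p = 3.06e-05). Library totals ranged from 14688380 to 18585376 counts, and hepatocyte markers summed to between 80518 and 107086 CPM in every liver.

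Malat1 is a long noncoding RNA held in the nucleus, where it gathers at nuclear speckles, the compartments that store splicing factors. Its primary transcript is cut by RNase P next to a tRNA-like sequence, and the mature end is protected by a triple helix in place of a poly(A) tail. Neat1 is the architectural RNA of paraspeckles, nuclear bodies that hold back some RNAs and proteins. A long form, made when an early polyadenylation site is passed over, builds the body, and the count table does not separate it from the short form. No function of Gm37376 is given in the annotation used here. GENCODE gives it the class TEC, for loci whose existence still awaits experimental proof.

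On GRCm38, Malat1 lies at chr19:5795690-5802672 on the minus strand and Neat1 at chr19:5824708-5845478, also on the minus strand. Both are annotated as lincRNA. Malat1 spans 6983 bases and Neat1 20771 bases, and 22035 bases lie between them. Gm37376 lies at chr19:5801941-5802393 on the plus strand, a single exon of 453 bases. It sits wholly inside the Malat1 exon on the opposite strand, at bases 280 to 732 from the Malat1 start, which is 6.49% of the Malat1 span. Whether the counting used the strand of the reads is not given in the sources used here. Without strand, reads of Gm37376 and of this stretch of Malat1 cannot be told apart.

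The first 300 bases of Gm37376 are shown because they hold the only sequence that it and Malat1 share with other annotated transcripts. They are read from GENCODE M21 at chr19:5801941-5802240 on the plus strand of GRCm38. Capitals mark the bases covered by a 25-base stretch that also occurs, on either strand, in a transcript of at least 1 other gene.
Gm37376 bases 1 to 300: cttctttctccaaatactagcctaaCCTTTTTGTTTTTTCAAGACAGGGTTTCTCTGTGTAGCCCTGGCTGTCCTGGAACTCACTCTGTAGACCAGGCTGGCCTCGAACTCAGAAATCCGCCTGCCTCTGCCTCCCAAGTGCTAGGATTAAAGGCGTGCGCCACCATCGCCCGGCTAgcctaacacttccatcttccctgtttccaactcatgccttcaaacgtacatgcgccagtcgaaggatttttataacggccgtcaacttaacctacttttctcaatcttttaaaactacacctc
The capitals run from base 26 to base 177 and have the letters of a B1 element, a short interspersed repeat of the mouse genome.

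Of the 429 stretches of 25 bases in Gm37376, 127 (29.6%) were shared with other genes, and the most widespread was found in 1220 of them. Malat1 holds 6959 such stretches, and 127 (1.82%) were shared. All 127 fall inside the part that Gm37376 covers, and 0 outside it. The repeat is thus common to both rows, and the rest of each sequence was found in no other annotated transcript at this length. With stretches of 50 bases, 83 of 404 (20.5%) in Gm37376 were still shared, and with 75 bases, 56 of 379 (14.8%). In Neat1, 321 of 20747 stretches of 25 bases (1.55%) and 0 of 20697 stretches of 75 bases were shared. The search covered annotated transcripts and not the whole genome.

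**Figure D1:**
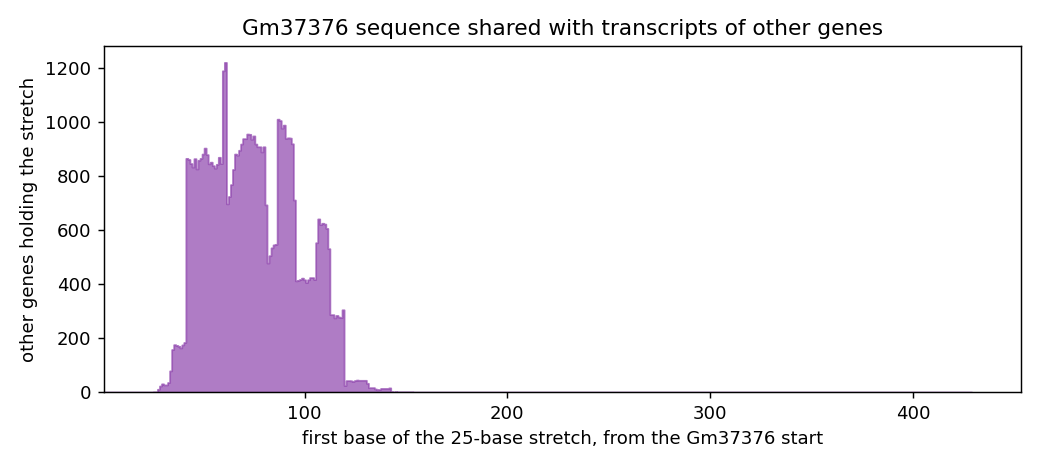
Horizontal axis, position of each 25-base stretch of Gm37376 from its start in bases. Vertical axis, number of other genes with a transcript that holds the same stretch on either strand. Sharing is confined to the first part of the 453 bases and reaches 1220 genes.

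Gm37376 was well counted in every WT liver and had few counts in 3 of the 4 N-LKO livers. The deposited counts in WT replicates 1 to 4 were 1346, 1316, 1329 and 1270. In N-LKO replicates 1 to 4 they were 28.8, 292, 23.5 and 6.0. All 4 N-LKO livers lay below all 4 WT livers, a separation in this direction seen in 3.32% of tested genes. The count of 6.0 in N-LKO replicate 4 has an exact 95% Poisson interval of 2.20 to 13.1, which covers counting error only.

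The WT livers were close together and the N-LKO livers far apart. In CPM, WT livers averaged 77.0 ± 7.16 (SD, n = 4), with a coefficient of variation of 9.30%. N-LKO livers averaged 5.70 ± 9.05 CPM (SD, n = 4), with a coefficient of variation of 159% and a range of 0.407 to 19.2 CPM. The highest N-LKO liver, replicate 2, was 47.3 times the lowest, while the highest WT liver was 1.20 times the lowest. The WT mean was 13.5 times the N-LKO mean.

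The fitted log2 fold change of Gm37376 was -3.76, and it was -5.97 without N-LKO replicate 2. Over all tested genes, 0.218% were called lower at an adjusted p under 0.05, and nothing is read from this for Gm37376. Since the gene was chosen by this contrast, no test is attached. N-LKO replicate 2 did not stand apart in Nus1, at 36.1 CPM against 33.3 to 38.7 CPM in the other N-LKO livers.

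Malat1, the speckle RNA, was lower on average in N-LKO livers, but the groups overlapped. Its level was 1512, 2362, 1106 and 1257 CPM in WT replicates 1 to 4. It was 720, 1443, 547 and 767 CPM in N-LKO replicates 1 to 4. Here 3 of the 4 N-LKO livers lay below every WT liver, while N-LKO replicate 2 lay above WT replicates 3 and 4.

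WT livers averaged 1559 ± 561 CPM of Malat1 and N-LKO livers 869 ± 394 CPM (SD, n = 4 each), or 55.7% of WT. The log2 fold change was -0.84 (SE 0.305, 95% interval -1.52 to -0.17). It did not pass the threshold after adjustment (edgeR quasi-likelihood adjusted p = 0.264), and Malat1 ranked 1001 among the 14214 genes by p. Before adjustment it was among the 5.9% of tested genes that were lower with a p under 0.05, and 12.8% reached that in either direction. For the difference in CPM an exact two-sided permutation test of the livers gave p = 0.0857, where the smallest p possible is 0.0286. With N-LKO replicate 2 left out, the log2 value became -1.20 (edgeR adjusted p = 0.0569).

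Adding the counts of Gm37376 to those of Malat1, which removes the effect of how counted reads were split between these overlapping rows, gave values close to those of Malat1 alone. Any reads of this stretch that were left uncounted or given to other genes would be missing from the sum. The sum averaged 1636 ± 563 CPM in WT and 875 ± 403 CPM in N-LKO livers (SD, n = 4 each). The fitted log2 fold change of the merged row was -0.90 (SE 0.302), given without a test because it contains the chosen gene.

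Neat1, the paraspeckle RNA, differed less. Its level was 428, 299, 170 and 267 CPM in WT replicates 1 to 4, and 217, 173, 204 and 196 CPM in N-LKO replicates 1 to 4. WT replicate 3 was the lowest of all 8 livers, and the 4 N-LKO livers lay within the WT range. In contrast to Gm37376, the spread was wide in WT and narrow in N-LKO, with coefficients of variation of 36.6% and 9.37%.

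WT livers averaged 291 ± 107 CPM of Neat1 and N-LKO livers 197 ± 18.5 CPM (SD, n = 4 each). The log2 fold change of -0.56 (SE 0.218, 95% interval -1.04 to -0.08) did not pass the threshold after adjustment (edgeR quasi-likelihood adjusted p = 0.308), and Neat1 ranked 1225 by p. The exact two-sided permutation test gave p = 0.143. Leaving out WT replicate 1, the highest liver, brought the log2 fold change to -0.31. Of the 14214 tested genes, 1.04% were called in either direction, and neither Malat1 nor Neat1 was among them. Because these are whole livers, fewer cells that hold an RNA and less RNA per cell cannot be told apart.

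**Figure D2:**
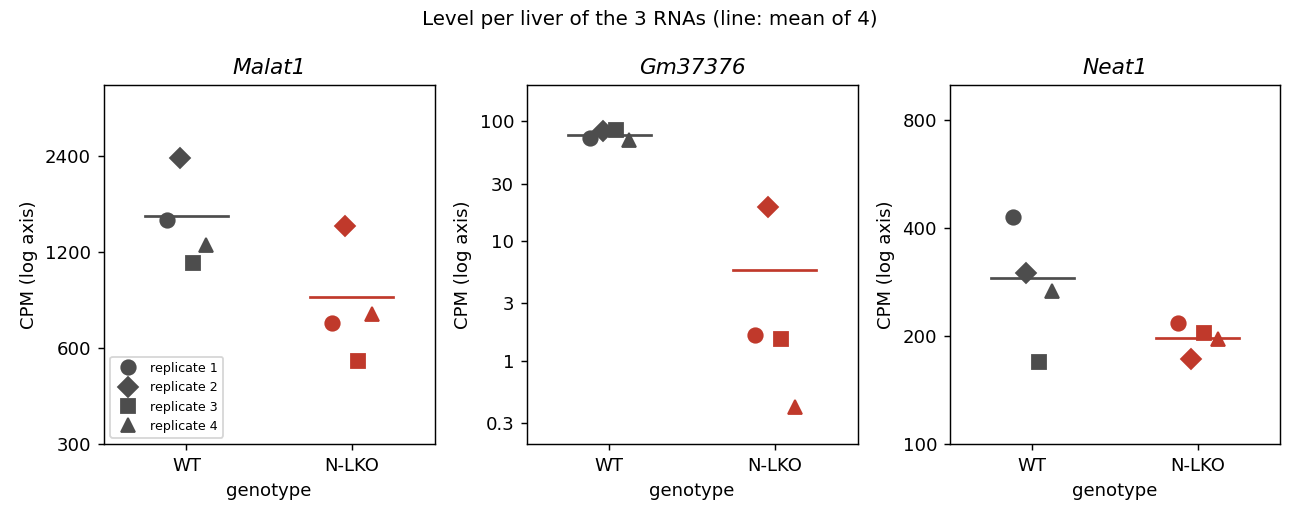
Vertical axes, CPM on log scales, for Malat1, Gm37376 and Neat1. Each symbol is 1 liver with its replicate number, and lines are means of 4 livers. Gm37376 is at 69.99 to 84.1 CPM in WT and at 0.407 to 19.2 CPM in N-LKO livers, while the groups overlap for Malat1 and Neat1.

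The livers did not rank alike for the 3 RNAs. N-LKO replicate 2 was the highest N-LKO liver for Gm37376 and for Malat1, and the lowest for Neat1. Among WT livers, replicate 3 was the highest for Gm37376 and the lowest for Malat1 and Neat1.

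Levels of different RNAs are compared per length, with the full annotated span of each taken as its length. For Neat1 this is 20771 bases, though some of its counts may come from the short form. Its level per length would then be understated. In WT livers Malat1 was at 223 ± 80.3 CPM per kb (SD, n = 4), Gm37376 at 170 ± 15.8 and Neat1 at 14.0 ± 5.13. In N-LKO livers Malat1 was at 124 ± 56.5 CPM per kb (SD, n = 4), Gm37376 at 12.6 ± 19.97 and Neat1 at 9.50 ± 0.891. With these lengths, Gm37376 and Malat1 overlapped in WT livers, and Gm37376 and Neat1 overlapped in N-LKO livers.

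Ratios within a liver do not depend on library scaling. For each 1000 counts of Malat1 there were 47.5, 34.8, 76.1 and 55.7 counts of Gm37376 in WT replicates 1 to 4. In N-LKO replicates 1 to 4 there were 2.26, 13.3, 2.85 and 0.530. The ratio was 53.5 ± 17.3 in WT and 4.75 ± 5.81 in N-LKO livers (SD, n = 4), 11.3 times higher in WT, again as a description. Every N-LKO liver lay below every WT liver in this ratio, which rests on the same Gm37376 counts and is no separate finding.

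Expressed per base, Gm37376 was covered at 0.536 to 1.17 times the density of Malat1 in WT livers. In N-LKO livers it was at 0.00817 to 0.206 times. WT replicate 3 was the liver in which the antisense row was more densely counted than Malat1 itself.

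The ratio of Neat1 to Malat1 showed no such separation. It was 0.283, 0.127, 0.154 and 0.212 in WT replicates 1 to 4. It was 0.302, 0.120, 0.373 and 0.255 in N-LKO replicates 1 to 4. The mean log2 ratio was higher by 0.39 in N-LKO livers, with SDs of 0.51 in WT and 0.71 in N-LKO livers, and the groups overlapped (exact two-sided permutation test, p = 0.371, n = 4 per group).

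**Figure D3:**
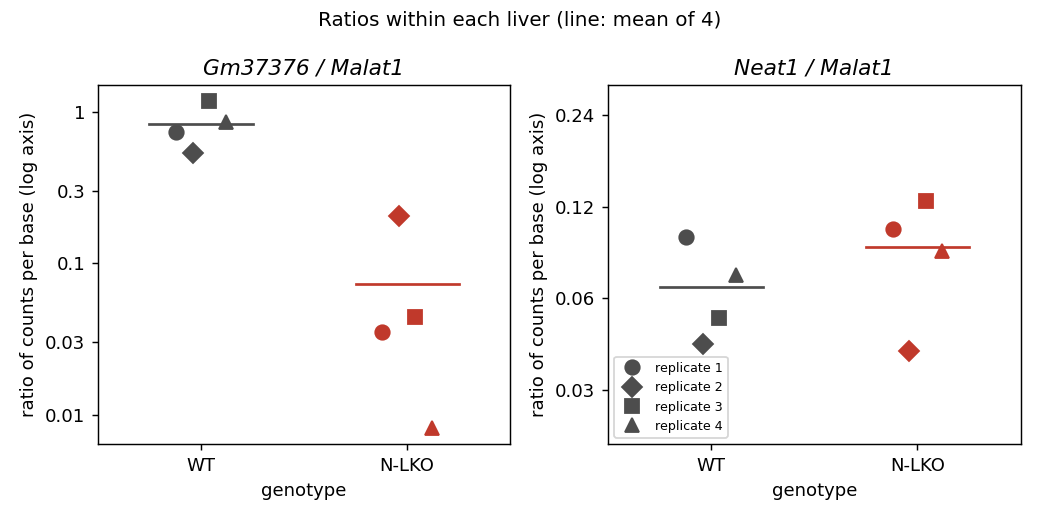
Vertical axes, ratio of counts per base of the full annotated spans within each liver on log scales, for Gm37376 to Malat1 and for Neat1 to Malat1. Symbols are livers by replicate number and lines are means of 4. The Gm37376 ratio is at 0.536 to 1.17 in WT and at 0.00817 to 0.206 in N-LKO livers, and the Neat1 ratio overlaps between groups.

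Genes around the locus were set beside all tested genes. Gm37376 was chosen for its lower count in this contrast, so its place among its neighbours is a description and no test. Of 94 other rows with their midpoint within 1 Mb of that of Malat1, 69 were tested and 0 were called by edgeR. Over all tested genes 1.04% were called, so 0 calls among 69 are near that share. At an unadjusted p under 0.05 there were 3, against 12.8% of all tested genes. DESeq2 called 1 neighbour and limma-voom 0. In all, limma-voom called 126 of 14214 genes, and DESeq2 called 394 from the 19642 rows, taken without the edgeR filter. DESeq2 applies its own filter on low counts, so its share is on another base. The median log2 fold change among the 69 was -0.01, beside -0.0033 over all tested genes.

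The nearest tested genes on the side of the Malat1 end included Ltbp3, Znrd2, Gm50387 and Fam89b. Ltbp3, which encodes a protein that binds latent TGF-β, was at 1.15 ± 0.174 CPM in WT and 2.33 ± 0.585 CPM in N-LKO livers (SD, n = 4). Its log2 fold change was 1.00 (SE 0.246, edgeR adjusted p = 0.101). It is the neighbour that DESeq2 called. Rows on opposite strands overlap here, so counts in this stretch are uncertain. On the Neat1 side were Frmd8, Slc25a45, Dpf2, Gm42067 and Cdc42ep2, with log2 fold changes from -0.29 in Cdc42ep2 to 0.32 in Gm42067. Gm28006, a row inside Neat1 on the annotation, had at most 6.22 counts in any liver and was not tested.

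**Figure D4:**
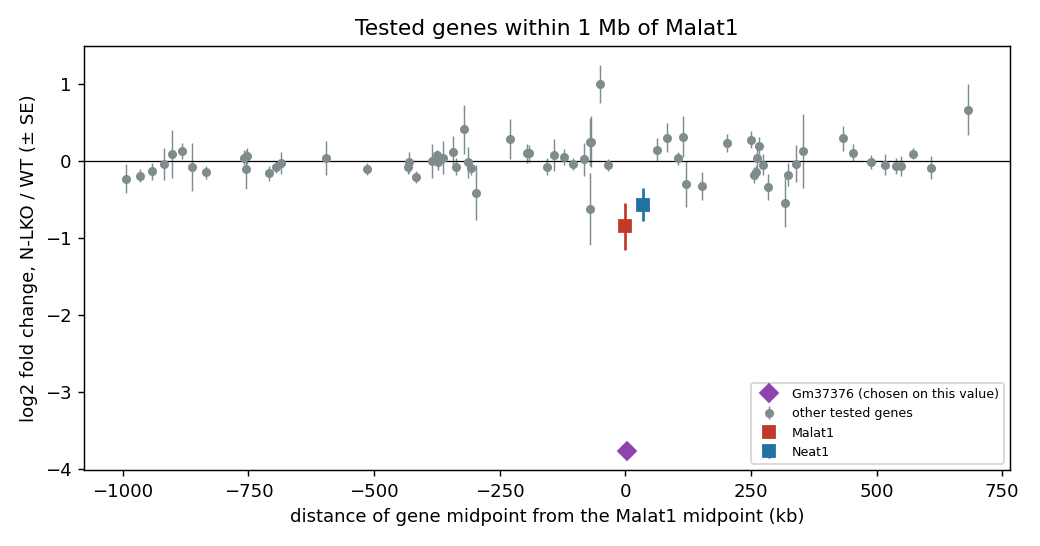
Horizontal axis, distance of each gene's midpoint from that of Malat1 in kb. Vertical axis, log2 fold change of N-LKO over WT, with bars for the SE, in 69 neighbours and the 3 RNAs. Gm37376, chosen on this value, is at -3.76, Malat1 at -0.84 and Neat1 at -0.56, and the neighbours lie between -0.62 and 1.00.

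The arrangement of Gm37376 inside an exon of a gene on the other strand was not rare in the table. By the annotation, 22 tested rows have all their exons inside a single exon of a tested row on the other strand. Among the 21 other than Gm37376, 0 were called by edgeR, DESeq2 or limma-voom, and 1 had an unadjusted p under 0.05 in edgeR. Their log2 fold changes ran from -0.82 to 0.73. Relative to the surrounding gene they ran from -0.77 to 0.42, while Gm37376 differed from Malat1 by -2.92. Gm37376 was chosen for its lower count in this contrast, so its place outside these ranges is a description and no test. Of these 21, 6 had a mean of at least 10 CPM, so most were less deeply counted than Gm37376, which had a mean of 41.4 CPM. Gm37376 was also 1 of 184 tested rows of the TEC class. Of the other 183, edgeR and limma-voom called 0, DESeq2 called 2, and 31 had an unadjusted p under 0.05 in edgeR. Over all tested genes edgeR called 1.04%, and 12.8% had an unadjusted p under 0.05.

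**Figure D5:**
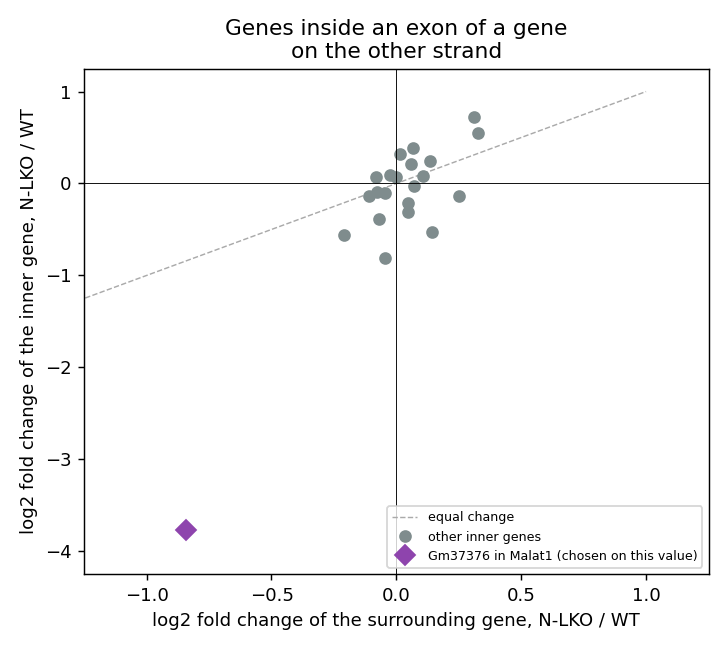
Each point is a tested gene lying inside an exon of a tested gene on the other strand. Horizontal axis, log2 fold change of the surrounding gene. Vertical axis, that of the inner gene. The dashed line marks equal change. Gm37376, chosen on this value, is at -3.76 against -0.84 for Malat1, and the 21 others have inner values from -0.82 to 0.73.

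Proteins that build or process these RNAs were described from lists. Of 20 paraspeckle proteins, 20 were tested and edgeR called 0, as did DESeq2 and limma-voom. Their median log2 fold change was -0.07 and 3 had an unadjusted p under 0.05, beside 1.04% called and 12.8% at an unadjusted p under 0.05 over all tested genes. Hnrnpk, an RNA-binding protein of paraspeckles, was at 210 ± 13.5 CPM in WT and 214 ± 5.76 CPM in N-LKO livers (SD, n = 4). Fam120a was at 183 ± 7.78 and 170 ± 2.13 CPM. Of 7 genes for polyadenylation and the choice between the Neat1 forms, which include Hnrnpk and the cleavage factor subunit Cpsf6, 0 were called by the 3 tools and 0 had an unadjusted p under 0.05.

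Nuclear speckle proteins, the partners of Malat1 at speckles, numbered 20 tested genes with 0 called by edgeR, DESeq2 or limma-voom and 4 at an unadjusted p under 0.05. Their median log2 fold change was -0.09, with 17 of 20 below 0. Over all 14214 tested genes, 7210 were below 0 and the median was -0.0033. Of all tested genes 1.04% were called by edgeR and 12.8% had an unadjusted p under 0.05. Srrm2 and Son, the large scaffold proteins of speckles, had log2 fold changes of -0.07 (SE 0.0971) and -0.14 (SE 0.0862). Of 15 genes for the cutting and protection of the Malat1 end, 13 were tested, 0 were called by the 3 tools and 2 had an unadjusted p under 0.05. Elac2, which trims the tRNA-like product, and the exosome nuclease Exosc10 had log2 fold changes of -0.07 and -0.02. Mettl16, a methyltransferase that binds the Malat1 triple helix and is named here after its value was seen, had -0.39 (SE 0.100, edgeR adjusted p = 0.120).

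Other long noncoding RNAs had log2 fold changes on both sides of 0, with edgeR calls only among the higher ones. Of 38 listed, 32 were tested, and edgeR called 2 higher and 0 lower, against 1.04% of all tested genes called. DESeq2 called 4 and limma-voom 2. At an unadjusted p under 0.05 in edgeR there were 10, of which 5 were lower, against 12.8% of all tested genes, and the median log2 fold change was -0.03. Meg3, a maternally expressed RNA of the imprinted Dlk1-Dio3 region, rose from 0.987 ± 0.211 CPM to 6.31 ± 1.74 CPM (SD, n = 4), a log2 fold change of 2.68 (SE 0.256, edgeR adjusted p = 0.000724). Rian, from the same region, rose from 0.477 ± 0.210 CPM to 3.87 ± 1.63 CPM (SD, n = 4), a log2 fold change of 3.00 (SE 0.397, edgeR adjusted p = 0.00574). Oip5os1 and Tug1, which had the largest mean CPM of the list, had log2 fold changes of -0.03 and -0.06. Kcnq1ot1, a long antisense RNA of the imprinted Kcnq1 region, named after its value was seen, had -0.96 (SE 0.274, edgeR adjusted p = 0.157) and was called lower by DESeq2 (adjusted p = 0.0160). With N-LKO replicate 2 left out it had -1.41 (edgeR adjusted p = 0.000731), and with any other liver left out it was not called. It ranged from 22.6 to 28.1 CPM in WT livers and from 8.22 to 23.6 CPM in N-LKO livers.

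Stress programs known to induce Neat1 in other cells were also listed. Among 13 tested p53 targets, Cdkn1a, the cell cycle inhibitor p21, rose with a log2 fold change of 0.59 (SE 0.103, edgeR adjusted p = 0.0224), a call lost in 6 of 8 fits without 1 liver, and the other 12 were not called by edgeR. At an unadjusted p under 0.05 in edgeR there were 4 of the 13, 2 higher and 2 lower, against 12.8% of all tested genes. Trp53inp1 and Perp, with the largest mean CPM of that list, had 0.02 and -0.24. Of 12 heat shock genes and 10 hypoxia genes tested, edgeR, DESeq2 and limma-voom called 0, with 0 and 1 at an unadjusted p under 0.05. Over all tested genes edgeR called 1.04% and 12.8% had an unadjusted p under 0.05, so 0 calls in lists this short are near that share. Hspa8 and Hspd1 had log2 fold changes of -0.0020 and -0.14, and Bnip3 and Vegfa 0.10 and -0.15. Of 2 mRNAs known to be held in hepatocyte nuclei, edgeR called 0, 1 had an unadjusted p under 0.05, DESeq2 called 1 and limma-voom 0. Mlxipl, which encodes the carbohydrate-responsive factor ChREBP, had -0.47 (SE 0.105, edgeR adjusted p = 0.0699), and Nlrp6 had -0.10.

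Markers of other liver cells moved with genotype in part. Of 6 cholangiocyte markers 4 were tested and 2 rose in edgeR, Epcam and Spp1, while DESeq2 called 3 and limma-voom 0. All 4 were higher in N-LKO livers, 3 of them at an unadjusted p under 0.05 (12.8% over all tested genes), and the list summed to 23.2 to 44.95 CPM in WT and 52.0 to 132.1 CPM in N-LKO livers. Of 7 stellate and fibroblast markers, all tested, Col1a1 rose in edgeR, while DESeq2 called 2 and limma-voom 0. At an unadjusted p under 0.05 there were 5, all higher in N-LKO livers. The edgeR calls of Epcam and Spp1 were each lost in 6 of 8 fits without 1 liver, and that of Col1a1 in 7 of 8. The stellate and fibroblast sums were 179 to 261 CPM in WT and 242 to 349 CPM in N-LKO livers. The hepatocyte, macrophage, endothelial, lymphocyte and erythroid lists had 0 called by edgeR, DESeq2 or limma-voom, with 0, 1, 0, 0 and 1 at an unadjusted p under 0.05. Of all tested genes edgeR called 1.04%. No listed marker was at 0 in all livers. Mitochondrially encoded genes held 14.1% to 14.8% of counts in WT and 13.04% to 15.2% in N-LKO livers. The part of these cells in the levels of Malat1, Neat1 and Gm37376 was not tested.

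The genes whose levels ran most alike with each RNA were sought among 13165 tested genes with mean levels from 1 CPM upward, and are a description over 8 livers. For Malat1 these were Sbno1, Rock1, Pdk1, Gm13803 and Gm48225, with Pearson r of log2 CPM from 0.960 to 0.988. After the mean of each genotype was taken away, Sbno1 and Rock1 remained among the 5, and Ubxn7 and Vps26b joined them (r from 0.970 to 0.988 for these 4). For Neat1 they were Zfp292, Abtb2, Tbc1d30, B930025P03Rik and Klf11 (r from 0.952 to 0.978), and with genotype means removed Crebrf, Zfp292, Hus1, Srpr and Htra3 (r from 0.967 to 0.981). For Gm37376, whose livers form separate groups, only the values with genotype means removed are given. The 5 highest included Nt5e, Pctp, Gm50010 and Ywhaz (r from 0.959 to 0.983). The log2 CPM of Gm37376 was 4.28 in N-LKO replicate 2 and -0.92 to 0.82 in the other N-LKO livers. Its r values therefore depend most on replicate 2. The 3 RNAs themselves were left out of the search. The highest of 13165 r values over 8 livers can be large for unrelated genes, and no test was made of them. Whether library depth or the handling of the livers has a part in these correlations was not tested.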

How the data were processed

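The authors deposited 1 table of expected counts (fractional read estimates for each gene) for 8 liver libraries. In it, 41.0% of rows were off a whole number by more than 0.01 in at least 1 liver. The study's methods name TopHat2 and cuffdiff, and the submitters' processing notes list STAR, Partek and the build mm9, while the deposited coordinates are those of GRCm38: of 19194 rows named in GENCODE M21, 18991 (98.9%) had its coordinates. How reads over 2 rows or repeats were assigned, which could move counts between Malat1 and Gm37376, is not given in the sources used here.

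Counts were rounded, kept by edgeR's filterByExpr (minimum count 10, minimum total 15), scaled by TMM and entered into the quasi-likelihood test of edgeR 4.0.16 (R 4.3.3) over all genes, called at a Benjamini-Hochberg adjusted p under 0.05. SE is the log2 fold change over the root of the F statistic, and the prior count of log2 CPM was 2. Single values were tested by exact two-sided permutation over livers. On simulated counts edgeR recovered genes changed by 3 on the log2 scale (200 of 200, with 5 false calls, 14018 genes tested). Changes of that size exceed those fitted for Malat1 and Neat1, so the recovery of smaller changes is not shown by it.

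The members and lists were chosen with earlier results of these data known. Named were the members, rows overlapping them, the 5 nearest tested genes on each side, list genes that were called, the 2 of each pathway list with the largest mean CPM, and the genes most alike in pattern; results for 3 of the genes this rule names are not reported here. Alternatives were RLE scaling, library totals, TMM without the members, no filter, at least 10 counts in every liver, DESeq2 1.42.0, limma-voom (limma 3.58.1), replicate blocks, each liver left out, and, chosen after seeing the data, Malat1 and Gm37376 merged. At 14688380 to 18585376 counts, values near 3 counts are uncertain.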

Additional observations from a re-analysis of the deposited data

Results flagged for a closer look

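Of 24 groups of 4 livers examined (CPM, log2 CPM, ratios and library totals), 2 held a liver whose gap to the nearest other liver took up an unusually large share of the range, and chance gives about 1 in 20 groups. Both were N-LKO replicate 2. Its Gm37376 level was 19.2 CPM, with a gap of 0.934 of the range, and on the log2 scale it did not stand apart in this way. Its Gm37376 count per 1000 counts of Neat1 was 111, with a gap of 0.949 of the range. Both values rest on the same Gm37376 count of 292.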

How the results depend on the processing

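Without each liver in turn, the log2 fold change was -1.20 to -0.57 for Malat1, -0.75 to -0.31 for Neat1 and -5.97 to -3.38 for Gm37376, and the number of genes called was 71 to 173, with 83, 91, 71 and 76 without WT replicates 2, 3 and 4 and N-LKO replicate 3. The log2 ratio of Gm37376 to Malat1 stayed between -5.09 and -3.54, and that of Neat1 to Malat1 between 0.18 and 0.73. In none of these fits was Malat1 or Neat1 called by edgeR (adjusted p from 0.0569 to 0.496 and from 0.0714 to 0.478). With all livers, at least 10 counts in every liver left 98 genes called and dropped Gm37376, and DESeq2 called 394, with 1 neighbour of the locus and 6 genes of the pathway lists against 0 and 3. Under the other settings with all livers Gm37376 ranged from -5.15 (limma-voom) to -3.76. The replicate number in the titles as a replicate block gave Malat1 a log2 fold change of -0.88 with an edgeR adjusted p of 0.0156, which passes the threshold, and Neat1 was not called. The pairing has no basis in the labels: correlations of the deviations of same-numbered livers were -0.085 to 0.062, and 0 of 8 livers were most like the liver with their own number. With library numbers the correlations were -0.0092 to 0.166, and 5 of 8 livers were most like the liver with their own number. Genes called moved from 148 to 131 and 113 under these blocks. Sign flips within title numbers gave p = 0.250 for Neat1 to Malat1 (exact). Library totals alone turned Cpsf6 to -0.018, Hnrnpk to -0.0025 and Trp53inp1 to -0.012, none of them called. The cause was not tested. Leaving out a liver also turned the sign of 8 genes, none of them called in any such fit: Cpsf6 ranged from -0.019 to 0.065, Elac2 from -0.12 to 0.0019, Exosc10 from -0.097 to 0.057, Hnrnpk from -0.0093 to 0.065, Hspa8 from -0.046 to 0.060, Nlrp6 from -0.15 to 0.055, Oip5os1 from -0.072 to 0.019 and Trp53inp1 from -0.19 to 0.34. Of the named genes called in the lists, Meg3 and Rian kept their calls in every fit that tested them. Without 1 liver the calls were lost in 6 of 8 fits for Cdkn1a, Epcam and Spp1 and in 7 of 8 for Col1a1, and under the 9 other settings with all livers in 0, 2, 3 and 5. The depth limits Gm37376 most in N-LKO replicate 4, at 6.0 counts.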
